A study of Mus musculus with 6 samples.

Results

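The aminoacyl-tRNA synthetases were followed in mouse early 2-cell embryos by their transcripts. Members were taken by symbol, as the rows named for an amino acid's letter followed by "ars", with an optional 1 or 2, plus Eprs, Farsa, Farsb and Fars2. The rule found 37 genes among 55549 rows, and 36 were analysed, 20 for cytosolic enzymes and 16 for mitochondrial enzymes. Gars and Kars, whose single genes encode enzymes for both compartments, were counted with the cytosolic set. The study compared untreated control embryos with embryos cultured in 40 µM ethylparaben (EtP), a preservative ester of para-hydroxybenzoic acid, from 4 h after fertilization. Each group had 3 libraries, made with Smart-seq2, a full-length method that primes on poly(A) tails and does not keep the strand. The labels give no strain, no number of embryos per library and no statement that the libraries came from separate cultures, and p-values therefore reflect only how these 6 libraries vary, which could be technical variation.

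Each synthetase joins 1 amino acid to its tRNAs, which the ribosome then reads, and Eprs carries the glutamate and proline enzymes in a single protein. Class I and class II enzymes have unrelated catalytic folds. Several cytosolic enzymes assemble with the scaffold proteins Aimp1, Aimp2 and Eef1e1 into the multi-synthetase complex. The mitochondrial enzymes are encoded in the nucleus and imported. Uncharged tRNA activates the kinase Gcn2 (Eif2ak4), which phosphorylates eIF2α and raises translation of the transcription factor Atf4, and Atf4 is known to bind C/EBP-ATF elements near several cytosolic synthetase genes. At the early 2-cell stage the mouse embryo is degrading transcripts stored in the egg and starting its own major wave of transcription.

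The promoter windows show which synthetase genes carry the letters of a C/EBP-ATF element, TGATGNAA on either strand, between 250 bases before and 50 after the annotated start. RefSeq (GRCm38.p6) windows matched 27 of the 36 genes. No window could be matched to Cars, Hars, Hars2, Lars, Nars, Pars2, Rars, Vars and Wars, so their promoters were not searched. Among these, Cars, Lars, Nars and Rars had transcripts that rose in EtP. The element occurred in 5 of 13 cytosolic windows (38.5%), in 0 of 14 mitochondrial windows and in 4.51% of 27025 genes with a window. Of the 8 genes with a window whose transcripts rose in EtP, 1 held it, Tars. The 5 sequences run from 120 bases before to 20 after the start on the gene's strand, with the matching bases in capitals.
Tars, chr15:11399639-11399778, minus strand: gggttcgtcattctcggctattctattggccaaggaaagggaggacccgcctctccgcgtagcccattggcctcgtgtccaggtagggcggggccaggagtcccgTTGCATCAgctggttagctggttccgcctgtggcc
Aars, chr8:111033722-111033861, plus strand: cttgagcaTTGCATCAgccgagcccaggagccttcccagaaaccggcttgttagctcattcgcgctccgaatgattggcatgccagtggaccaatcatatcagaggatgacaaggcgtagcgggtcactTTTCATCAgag
Gars, chr6:55037881-55038020, plus strand: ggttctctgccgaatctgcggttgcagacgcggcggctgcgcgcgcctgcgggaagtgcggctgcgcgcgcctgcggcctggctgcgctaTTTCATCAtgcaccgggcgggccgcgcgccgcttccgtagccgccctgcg
Iars, chr13:49682010-49682149, plus strand: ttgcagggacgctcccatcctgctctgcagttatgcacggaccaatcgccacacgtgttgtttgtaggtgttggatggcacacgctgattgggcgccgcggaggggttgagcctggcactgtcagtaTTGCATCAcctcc
Yars, chr4:129189783-129189922, plus strand: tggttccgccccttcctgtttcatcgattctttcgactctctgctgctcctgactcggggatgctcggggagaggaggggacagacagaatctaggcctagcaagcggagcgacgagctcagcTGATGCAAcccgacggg
Aars held 2 copies and the other 4 genes held 1 each. A match is a description of the letters and not evidence of binding.

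Total counts per library lay between 11173295 and 14737152. The TMM scaling factor was lower in EtP (0.738 to 0.833) than in control (1.20 to 1.38), so a gene with an equal share of all counts in both groups appears higher in EtP after scaling. Libraries correlated at 0.940 to 0.988 within groups and 0.905 to 0.936 between them, across genes on the log2 scale. Levels are given in CPM, each gene's TMM-scaled share of a library's counts, for comparing libraries, and in TPM, which corrects for transcript length, for comparing genes. In these libraries fewer cells of a kind and less RNA per cell cannot be told apart. Of 20 markers of cumulus cells, which surround the egg, 9 were tested, 0 were called higher and 4 lower. Across all genes tested 12.5% were called higher and 18.1% lower. The markers called lower were 6 with library size alone and 2 without control replicate 2. The summed level of the 20 markers was 53.4 to 88.5 CPM in control and 57.5 to 62.2 CPM in EtP. Ptx3 and Amh had no count in any library, and 8 markers had none in EtP. The part of these cells in the synthetase values was not tested.

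Of the 36 genes, 31 passed the filter on low counts, which needs enough counts in at least as many libraries as the smaller group holds. In edgeR's quasi-likelihood test with Benjamini-Hochberg adjustment over 14373 genes, 12 of the 31 rose in EtP at adjusted p below 0.05 and 0 fell. Across all genes tested, 30.6% were called, with 12.5% higher and 18.1% lower. The median log2 fold change was 0.54 for the synthetases and -0.19 for all genes, and it was above 0 for 26 of the 31 synthetases against 41.2% of all genes. All EtP libraries lay above all control libraries for 16 of the 31 genes and below them for 1, against 19.0% and 27.9% of all genes. These counts depend on the scaling. With library size alone, 5 synthetases were called higher and 5 lower, their median was -0.21, and 3.79% of all genes were higher and 53.0% lower.

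**Figure D1:**
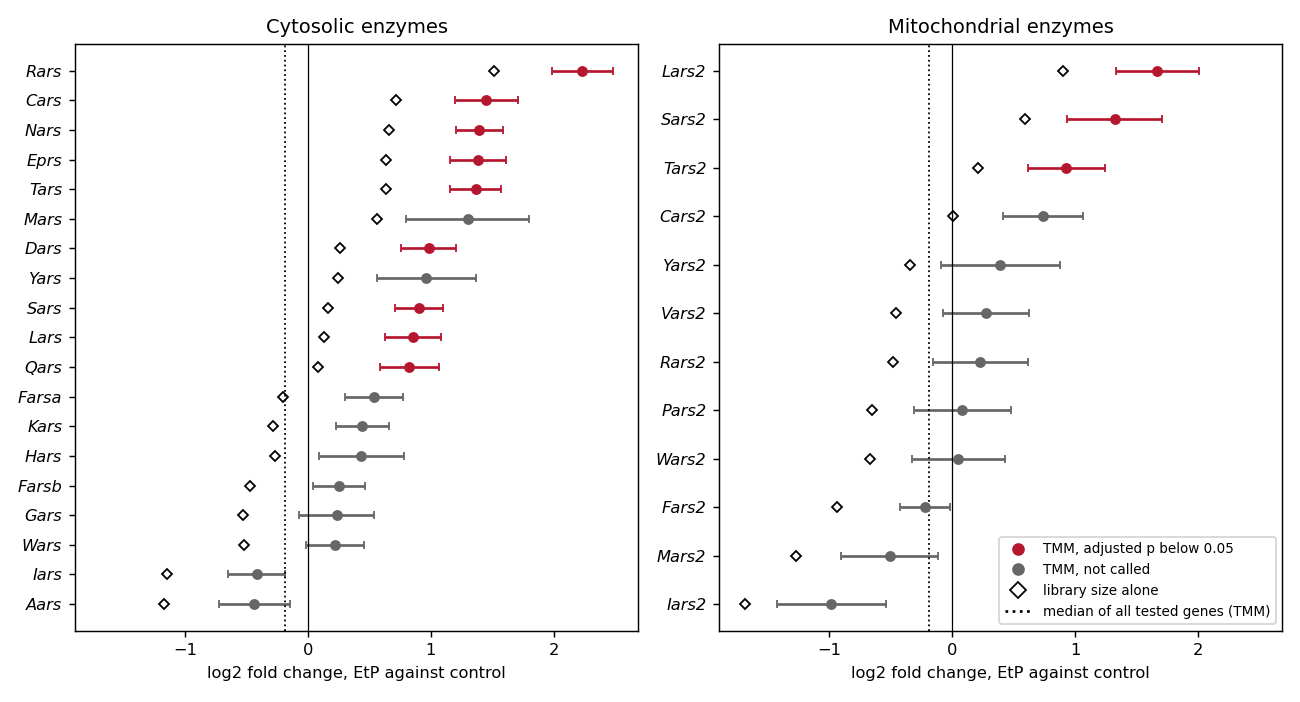
Log2 fold changes of the 31 tested synthetases, EtP against control, with standard errors from edgeR, in separate panels for cytosolic and mitochondrial enzymes. Red points passed the test, grey points did not, diamonds give the value with library size alone and the dotted line the median of all tested genes. Rars stands highest at 2.24 and Iars2 lowest at -0.98.

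The cytosolic enzymes held most of the calls. Of 19 tested, 9 rose, namely Rars, Cars, Nars, Eprs, Tars, Dars, Sars, Lars and Qars, against 12.5% of all genes. The median log2 fold change of the set was 0.85. The EtP libraries lay above every control library for 12 of the 19, against 19.0% of all genes. With library size alone 4 cytosolic enzymes were called higher and 2 lower, with a median of 0.13. The summed scaled level of the 20 cytosolic enzymes was 803, 799 and 883 CPM in control and 1479, 1396 and 1482 CPM in EtP. As a share of all counts, without scaling, the same sums were 0.0958, 0.103 and 0.122% in control and 0.109, 0.106 and 0.123% in EtP. The scaled sums did not overlap between the groups and the unscaled shares did.

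Rars, which charges arginine tRNA and belongs to the multi-synthetase complex, changed most (chr11:35808381-35834506, mm10, minus strand). It measured 18.4, 15.5 and 11.2 CPM in control and 73.8, 70.8 and 68.4 CPM in EtP. The lowest EtP library was thus well above the highest control library. The log2 fold change was 2.24 ± 0.25 (SE, n = 3 per group; edgeR adjusted p = 0.000117). The call was kept with library size alone, at a log2 fold change of 1.52.

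Cars, the cysteine enzyme (chr7:143557230-143600090, minus strand), measured 10.3, 16.9 and 13.8 CPM in control and 40.3, 31.7 and 40.3 CPM in EtP. Its log2 fold change was 1.45 ± 0.25 (SE; edgeR adjusted p = 0.00203). No control library reached the lowest EtP library. Nars, the asparagine enzyme (chr18:64499647-64516652, minus strand), stood at 113, 103 and 109 CPM in control and 289, 296 and 274 CPM in EtP. Its replicates differed by little within either group, and its log2 fold change was 1.40 ± 0.19 (edgeR adjusted p = 0.000481). Tars, the threonine enzyme with the element shown above (chr15:11382301-11399665, minus strand), had 47.7, 40.1 and 40.0 CPM in control. Its EtP libraries had 106, 121 and 103 CPM, all above the control range. The log2 fold change of Tars was 1.37 ± 0.21 (edgeR adjusted p = 0.000872). Rars, Cars, Nars and Tars were called higher under every one of 16 alternative settings, library size alone and each left-out library included.

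Eprs, the fused glutamate and proline enzyme of the complex (chr1:185363044-185428360, plus strand), measured 35.4, 49.3 and 56.3 CPM in control and 123, 120 and 125 CPM in EtP. The EtP libraries lay close together and apart from control, with a log2 fold change of 1.38 ± 0.23 (edgeR adjusted p = 0.00144). Dars, the aspartate enzyme of the complex, had 49.2, 35.5 and 34.99 CPM in control and 84.3, 76.9 and 75.6 CPM in EtP. For Dars the groups did not overlap, and the log2 fold change was 0.98 ± 0.22 (edgeR adjusted p = 0.00769). Sars, the serine enzyme, had 64.6, 65.4 and 66.9 CPM in control and 134, 118 and 116 CPM in EtP. Its control libraries spanned only a few CPM, and its log2 fold change was 0.90 ± 0.20 (edgeR adjusted p = 0.00625). With library size alone these 3 lost their calls, at adjusted p = 0.0517 for Eprs, 0.321 for Dars and 0.506 for Sars in edgeR.

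Lars and Qars, the leucine and glutamine enzymes of the complex, passed the test more narrowly. Lars measured 30.5, 24.4 and 20.6 CPM in control and 46.2, 47.8 and 42.7 CPM in EtP, with a log2 fold change of 0.85 ± 0.23 (edgeR adjusted p = 0.0165). Qars measured 43.4, 60.6 and 70.6 CPM in control and 112, 87.0 and 111 CPM in EtP, with a log2 fold change of 0.83 ± 0.24 (edgeR adjusted p = 0.0246). Neither gene's groups overlapped. Each was called in 10 of 16 alternatives. Both lost the call with library size alone, among genes of at least 10 CPM in 3 libraries, at a threshold of 0.01, without control replicate 2 and without EtP replicate 1, and Lars also without EtP replicate 2 and Qars without EtP replicate 3.

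The other 10 cytosolic genes tested did not pass. Farsa, the catalytic subunit of the phenylalanine enzyme, had 22.9, 22.3 and 34.0 CPM in control and 37.6, 37.1 and 40.1 CPM in EtP, with a log2 fold change of 0.54 (edgeR adjusted p = 0.11). It was called higher by DESeq2 and without control replicate 3. Its partner subunit Farsb was at 0.25, with overlapping groups, 143 to 187 CPM in control and 170 to 216 CPM in EtP. Both subunits are needed for the active enzyme. Kars, the lysine enzyme, had EtP libraries at 61.9 to 84.5 CPM against 49.9 to 61.5 CPM in control, with a log2 fold change of 0.44 (edgeR adjusted p = 0.145). Mars, the methionine enzyme, and Yars, the tyrosine enzyme, had log2 fold changes of 1.30 and 0.97 at means under 5 CPM (edgeR adjusted p = 0.0715 and 0.095). Mars was called higher in 4 of 15 alternatives, with edgeR adjusted p = 0.0131 without the filter, 0.0053 with the replicate block and 0.0163 without control replicate 3, and with DESeq2 adjusted p = 0.0412. Yars and Hars were called higher without control replicate 1. Hars at 0.43, Gars at 0.23 and Wars at 0.22, the histidine, glycine and tryptophan enzymes, had overlapping groups.

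Iars, the isoleucine enzyme, and Aars, the alanine enzyme, were the 2 cytosolic genes with negative values, at -0.42 and -0.44. Iars stood at 60.5, 77.7 and 72.1 CPM in control and 47.8, 44.0 and 65.6 CPM in EtP, so that 1 EtP library lay within the control range (edgeR adjusted p = 0.197). Aars stood at 7.26, 9.73 and 12.6 CPM in control and 6.56, 6.63 and 8.61 CPM in EtP (edgeR adjusted p = 0.276). Aars shares 1326 exonic bases with Exosc6 on the same strand. Exosc6 had 0.780, 0.106 and 0.844 CPM in control and 0, 0.552 and 0.248 CPM in EtP. Iars was called lower among genes of at least 10 CPM in 3 libraries. With library size alone both Iars and Aars were called lower, at -1.14 and -1.18 on the log2 scale. Both hold the C/EBP-ATF letters in their promoter windows. Vars, the valine enzyme, had 3, 9 and 17 counts in control and 6, 7 and 5 counts in EtP and was not tested.

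**Figure D2:**
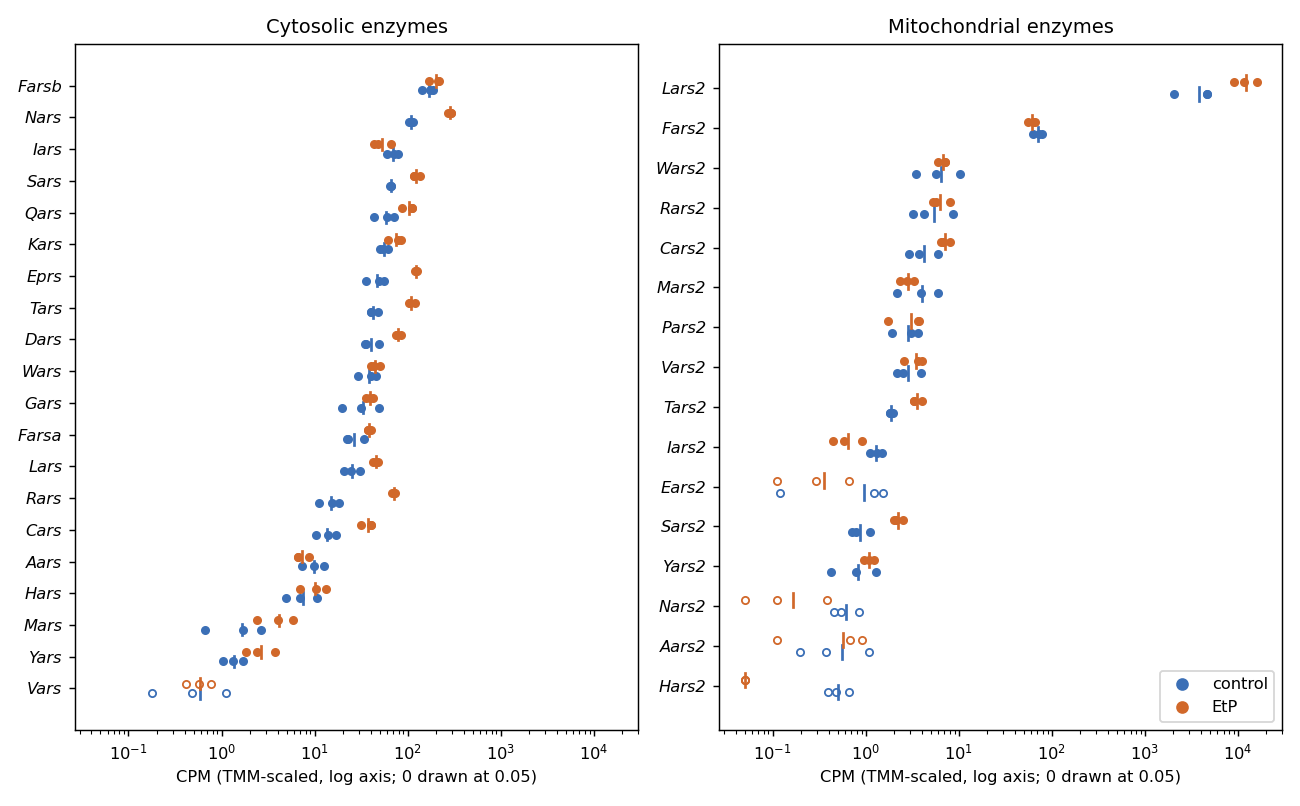
Scaled CPM of each synthetase in each of the 6 libraries on a log axis, control in blue and EtP in orange, with cytosolic and mitochondrial enzymes in separate panels. Vertical bars are group means, open circles are genes not tested, and a level of 0 is drawn at 0.05 CPM. The 3 EtP points of Rars sit between 68.4 and 73.8 CPM, above its control points at 11.2 to 18.4 CPM.

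Calls occurred in both structural classes and inside and outside the complex. Among cytosolic class I enzymes 4 of 8 tested rose, with a median log2 fold change of 0.91, and among class II enzymes 4 of 10, with a median of 0.49. Eprs, which joins an enzyme of each class, was left out of both. Of the 8 enzymes of the multi-synthetase complex 5 rose (Rars, Eprs, Dars, Lars and Qars), with a median of 0.92. Of the 11 tested outside it 4 rose (Cars, Nars, Tars and Sars), with a median of 0.54. None of these groups had a member called lower, and no difference between them was tested. Across all genes 12.5% were called higher. Without control replicate 2 or EtP replicate 1, 2 class I enzymes and 3 of the complex were higher. Class II and the enzymes outside the complex then stayed at 4. With library size alone the complex had 1 higher and 1 lower, and the enzymes outside it 3 and 1. Each class then had 2 higher and 1 lower.

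Levels differed widely between the enzymes. On the TPM scale, which corrects for length, the highest cytosolic control means were Farsb at 155 ± 26.3 TPM (SD, n = 3), Nars at 97.0 ± 4.15, Sars at 96.5 ± 11.2 and Qars at 80.0 ± 17.2. Nars and Sars, and Sars and Qars, did not differ beyond their SDs. In EtP the order was led by Nars at 216 ± 10.7 TPM and Sars at 151 ± 10.3, with Farsb at 116 ± 23.4 and Qars at 110 ± 11.7. Rars moved from 12.3 ± 1.17 TPM in control to 37.5 ± 2.08 in EtP. At the low end stood Yars, Mars and Vars, with control means of 1.40, 1.37 and 1.20 TPM and SDs that overlap.

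The mitochondrial enzymes were low apart from Lars2 and Fars2. Of the 12 tested, 3 rose (Lars2, Sars2 and Tars2) and 0 fell, with a median log2 fold change of 0.25. Across all genes tested 12.5% were higher and 18.1% lower. Without Lars2, 2 of the remaining 11 rose, near the share of all genes, and their median was 0.23. This count was 0 without control replicate 3 or any 1 EtP replicate. It was 3 without control replicate 1 and 2 without control replicate 2. The summed level of the 15 mitochondrial rows other than Lars2, tested or not, was 94.4 to 110.3 CPM in control and 94.3 to 104 CPM in EtP, so the groups overlapped. As an unscaled share of all counts it was 0.0129, 0.0141 and 0.0130% in control and 0.00724, 0.00716 and 0.00869% in EtP, without overlap. Fars2 made up most of this sum, with means of 71.0 CPM in control and 61.0 CPM in EtP.

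Sars2, the mitochondrial serine enzyme, had 0.780, 1.11 and 0.714 CPM in control and 2.51, 2.10 and 1.99 CPM in EtP. These values rest on 11 to 26 counts per library. The groups did not overlap, and the log2 fold change was 1.32 ± 0.39 (edgeR adjusted p = 0.0258). Tars2, the threonine enzyme, had 1.98, 1.80 and 1.82 CPM in control and 3.28, 3.31 and 4.06 CPM in EtP, with a log2 fold change of 0.93 ± 0.32 (edgeR adjusted p = 0.0461). Sars2 was called in 9 of 15 alternatives and Tars2 in 4 of 15. Sars2 lost the call with library size alone and without control replicate 3 or any EtP replicate, and Tars2 with each left-out library except control replicate 1. Both lost it at a threshold of 0.01, and Tars2 also with library size alone, upper-quartile scaling, no filter, the replicate block and DESeq2.

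Iars2, the mitochondrial isoleucine enzyme, had 1.32, 1.48 and 1.10 CPM in control and 0.579, 0.442 and 0.911 CPM in EtP. It was the 1 tested synthetase with every EtP library below control, and its log2 fold change of -0.98 ± 0.44 missed the threshold (edgeR adjusted p = 0.115). Iars2 shares 2034 exonic bases with Rab3gap2 on the opposite strand, and the counts do not separate strands. Mars2, the methionine enzyme, had 2.16, 3.91 and 5.91 CPM in control and 2.80, 3.31 and 2.32 CPM in EtP, with overlapping groups and a log2 fold change of -0.51. Fars2, the phenylalanine enzyme, had 77.5, 72.2 and 63.4 CPM in control and 62.0, 55.2 and 65.8 CPM in EtP, with a log2 fold change of -0.22 (edgeR adjusted p = 0.447). Iars2, Mars2 and Fars2 were called lower with library size alone. Fars2 overlaps exons of Nrn1 and Lyrm4 on the opposite strand, by 501 and 115 bases.

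The remaining tested genes were Cars2 at 0.74, Yars2 at 0.39, Vars2 at 0.28, Rars2 at 0.23, Pars2 at 0.08 and Wars2 at 0.05 on the log2 scale, none of them called. In Cars2, the cysteine enzyme, the EtP libraries lay above control, at 6.47 to 8.07 CPM against 2.94 to 6.03 CPM (edgeR adjusted p = 0.11). Cars2 shares 422 exonic bases with Naxd on the opposite strand, which the counts do not separate. Naxd had 2.40, 3.12 and 1.95 CPM in control and 5.02, 4.53 and 3.31 CPM in EtP. Cars2 was called higher with the replicate block and without control replicate 2, and Rars2 without control replicate 1. Aars2, Ears2, Hars2 and Nars2 had too few counts for the test. Hars2, the mitochondrial histidine enzyme, had 11, 9 and 6 counts in control and no count in EtP. Set against a limit of 3 counts over the group, its level in EtP was at least 5.35-fold lower. It was called lower by DESeq2 and by edgeR without the filter (adjusted p = 0.0304 and 0.00456). Hars2 shares 195 exonic bases with Hars, its head-to-head neighbour on the opposite strand. Nars2 had 9, 16 and 7 counts in control and 4, 1 and 0 in EtP.

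The enzymes for 1 amino acid in the 2 compartments can be compared within a library, where the scaling cancels. Of 17 pairs analysed, 12 had both genes tested, and the cytosolic to mitochondrial ratio of counts was higher in every EtP library than in every control library for 8 pairs, lower for 1 and overlapping for 3. Over all ordered pairs of tested genes with a count in every library, 22.4% had a higher ratio in every EtP library. The methionine and arginine pairs moved most by their group means. Rars counts were at 3.10 ± 0.852 (SD, n = 3) times those of Rars2 in control and 11.6 ± 2.11 times in EtP. Its separate values were 2.13, 3.72 and 3.46 in control and 9.22, 12.6 and 13.1 in EtP. Rars rose while Rars2 was at 0.23 on the log2 scale, not called.

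The Mars to Mars2 ratio was 0.396 ± 0.0790 in control and 1.53 ± 0.859 in EtP, and Eprs to Pars2 16.7 ± 1.56 in control against 71.1, 32.0 and 34.2 in the EtP libraries. The isoleucine pair, Iars to Iars2, went from 54.6 ± 9.93 to 84.7 ± 13.9. It rests on few Iars2 counts, 22, 28 and 17 in control and 6, 4 and 11 in EtP. In the isoleucine pair both genes had negative fold changes, so the higher ratio reflects the more negative value of Iars2. Cars to Cars2, Tars to Tars2, and Farsa and Farsb to Fars2 were the other higher pairs, the last 2 sharing their denominator. Sars to Sars2 was the lower pair, at 78.5 ± 17.8 in control and 56.0 ± 2.38 in EtP. The leucine, tryptophan and tyrosine pairs overlapped. With 3 libraries against 3 an exact permutation test cannot give a p below 0.10, so the ratios are reported as values.

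**Figure D3:**
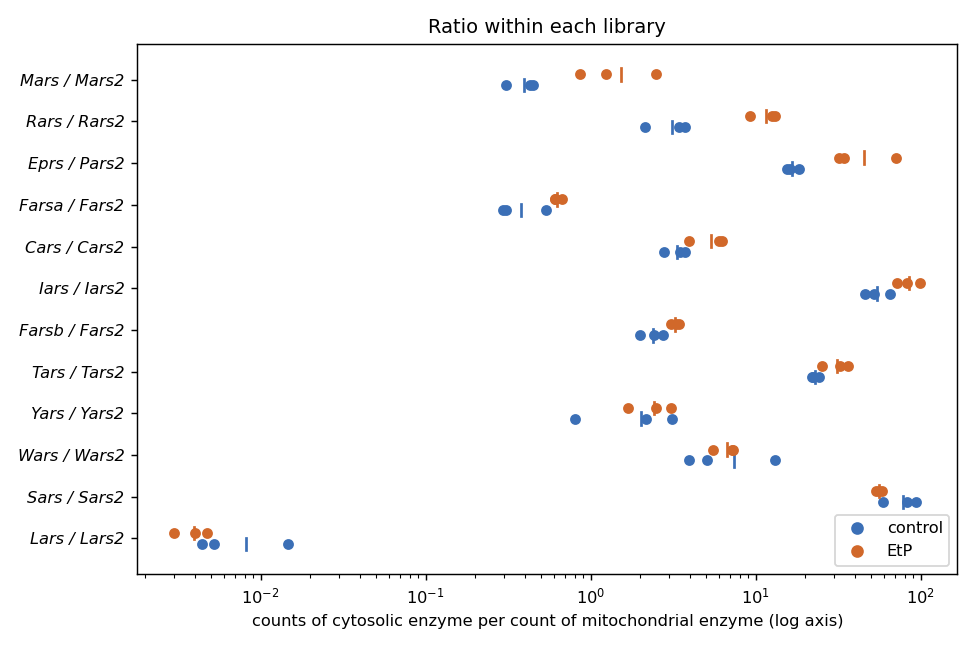
Ratio of cytosolic to mitochondrial counts in each of the 6 libraries on a log axis, for the 12 pairs with both genes tested, control in blue and EtP in orange, with vertical bars at group means. The Rars to Rars2 points run from 2.13 to 3.72 in control and from 9.22 to 13.1 in EtP.

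Lars2, the mitochondrial leucine enzyme, had the highest level of all synthetases in both groups (chr9:123366927-123462666, plus strand). Its control mean was 1805 ± 908 TPM, against 221 ± 11.6 TPM for Fars2, the next mitochondrial enzyme, and 6.25 ± 2.76 TPM for Wars2, which did not differ beyond its SD from Rars2 at 5.84 ± 1.94 TPM. It measured 2074, 4671 and 4684 CPM in control and 11508, 15926 and 8980 CPM in EtP. The control libraries differed by more than 2-fold among themselves, and all lay below the EtP libraries. The log2 fold change was 1.67 ± 0.34 (SE; edgeR adjusted p = 0.0043), and it was called in 16 of 16 alternatives. Lars2 alone took 0.247 to 0.646% of all counts in control and 0.747 to 1.21% in EtP, more than all cytosolic synthetases together.

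The last exon of Lars2 holds a stretch resembling another transcript. Bases 3278 to 3349 of Lars2-201, in exon 21 of 21 and within the 3′ UTR at chr9:123462048-123462119, are 98.6% identical over 72 bases to Gm15564. Gm15564, annotated as antisense (chr16:35966752-35983230, minus strand), is on the list of rows taken to collect ribosomal RNA reads. It measured 37.9, 85.1 and 104 CPM in control and 208, 270 and 134 CPM in EtP. Its log2 fold change was 1.43 ± 0.37 (edgeR adjusted p = 0.0145). Unlike the call of Lars2, this call was lost with library size alone, at a threshold of 0.01 and without EtP replicate 2. Both rows were lowest in control replicate 1 and highest in EtP replicate 2. The 7 rows of the list, Gm15564 included, summed to 27678, 18956 and 15030 CPM in control. In EtP they summed to 23842, 39139 and 18398 CPM, so the groups overlapped. Within control this sum was highest in replicate 1, where Lars2 was lowest. Of the 7 rows 1 was called higher and 1 lower, with a median log2 fold change of -0.07. The ratio of Lars2 to Gm15564 was 54.7, 54.9 and 45.2 in control and 55.3, 59.0 and 67.1 in EtP.

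The mitochondrial ribosomal RNA rows mt-Rnr1 and mt-Rnr2 had log2 fold changes of 0.88 and 0.54, not called (edgeR adjusted p = 0.0874 and 0.226). The row Gm26917 fell, from 6.40 ± 3.11 CPM to 1.20 ± 0.309 CPM. The deposited length of Lars2 was 3755 to 3756 bases in all 6 libraries, beside 3756 bases for the nonsense-mediated-decay transcript Lars2-209 and 3894 for the protein-coding Lars2-201. How much of the Lars2 count comes from ribosomal RNA was not tested, so its values are given as those of the row. Leaving the ribosomal RNA rows out before scaling left 9 cytosolic and 3 mitochondrial genes higher.

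**Figure D4:**
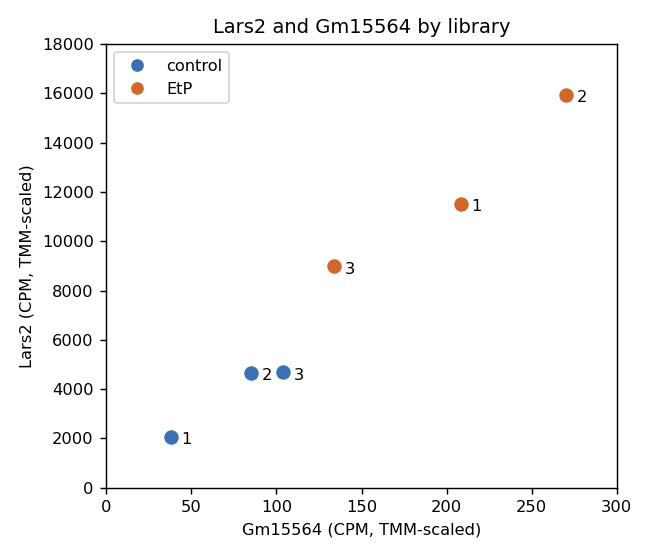
Scaled CPM of Lars2 against that of Gm15564 in the 6 libraries, numbered by replicate, both axes linear. The points run from 2074 and 37.9 CPM in control replicate 1 to 15926 and 270 CPM in EtP replicate 2.

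The deposited length of a gene is a mean over its transcripts weighted by their abundance, so it moves when the mixture of transcripts does. Of 30 tested synthetases with more than 1 transcript, 2 were longer in every EtP library and 3 shorter, against 11.0% and 10.3% of all such genes, so the share was near that of other genes. The shorter ones were Iars (2139 to 2970 bases in control, 1602 to 1735 in EtP), Nars (1777 to 2311 and 1408 to 1631) and Sars (1149 to 1331 and 913 to 1071). The longer ones were Hars (1743 to 1804 bases in control, 1989 in each EtP library) and Fars2 (627 to 690 and 708 to 782). For Fars2 the mean TPM was 221 ± 11.6 in control and 103 ± 13.4 in EtP while its scaled CPM did not pass the test. TPM is divided by this length and carries no TMM scaling.

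Other genes of the pathway are given by list, beside the 12.5% of all genes called higher, the 18.1% called lower and the median of -0.19. Of the 3 complex scaffolds, Aimp1 rose from 3.33 ± 2.01 CPM to 9.22 ± 2.62 CPM (log2 fold change 1.47 ± 0.42; edgeR adjusted p = 0.0219). The call of Aimp1 was lost with library size alone, at a threshold of 0.01 and when control replicate 2 or EtP replicate 1 or 2 was left out. Aimp2 and Eef1e1 had log2 fold changes of -0.59 and -0.68, not called. Of 12 tested genes of tRNA editing and indirect charging 3 rose and 1 fell, with a median of 0.08. These counts were 1 and 0 when EtP replicate 1 or 2 was left out and 2 and 2 without control replicate 2. Sepsecs, which makes selenocysteine on its tRNA, rose from 35.7 ± 5.02 CPM to 96.3 ± 22.7 CPM and was called under all 16 alternatives. Tarsl2, a second cytosolic threonine enzyme outside the naming rule, rose from 15.2 ± 6.86 CPM to 37.4 ± 11.0 CPM (edgeR adjusted p = 0.0184). It was called in 10 of 16, and lost the call when control replicate 1 or EtP replicate 1 or 2 was left out.

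Of 22 tested genes of the Atf4 and amino acid response 2 rose and 5 fell, with a median of -0.18. The counts were 1 and 2 without either EtP replicate 1 or 2, 1 and 6 without control replicate 2, and 1 and 4 without EtP replicate 3. Atf4 measured 56.2, 85.0 and 84.3 CPM in control and 120, 126 and 115 CPM in EtP (log2 fold change 0.68 ± 0.22; edgeR adjusted p = 0.0422). Atf4 was called in 8 of 16 alternatives and lost the call with control replicate 2 or any 1 EtP replicate left out. Mthfd2, a mitochondrial folate enzyme, rose from 324 ± 49.2 CPM to 613 ± 68.8 CPM. Mthfd2 was called in 15 of 16 alternatives and lost the call with library size alone. Ddit3 (Chop), a stress-induced transcription factor and a target of Atf4, fell from 57.0, 33.2 and 23.1 CPM to 14.3, 11.5 and 12.3 CPM (log2 fold change -1.57 ± 0.33; edgeR adjusted p = 0.0049). Its call was kept in 16 of 16. Ddit3 shares 68 exonic bases with Mars on the opposite strand. Asns, the asparagine synthetase gene induced by Atf4, was at -0.14 and Slc7a11, the cystine transporter, at -0.10, not called. Psat1, Cebpb, Ero1l and Pycr1, with means over all libraries under 5 CPM, were the others that fell.

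Among 7 tested genes of the eIF2 kinases and their partners, with a median of 0.26, 1 rose (2 without control replicate 1 or control replicate 3). It was Gcn1, which activates Gcn2, from 43.6 ± 6.71 CPM to 103 ± 41.9 CPM (edgeR adjusted p = 0.0108). The call of Gcn1 was lost with library size alone and at a threshold of 0.01. Gcn2 itself (Eif2ak4) was at 0.37, not called. Of 9 tested translation elongation factors, with a median of 0.30, 2 rose (1 without EtP replicate 1). Among them was Tufm, which carries charged tRNA to the mitochondrial ribosome and rose from 4.55 ± 0.359 CPM to 11.2 ± 1.15 CPM. Tufm lost its call with library size alone. Of 42 tested genes of tRNA processing and modification 6 rose and 6 fell, with a median of 0.14. The counts were 3 and 1 without EtP replicate 3, 3 and 3 without EtP replicate 1, 4 and 3 without EtP replicate 2, 3 and 6 without control replicate 2, and 6 and 3 without control replicate 1. Trnt1, which adds the CCA end that synthetases charge, rose from 115 ± 26.6 CPM to 348 ± 49.4 CPM (log2 fold change 1.60 ± 0.23; edgeR adjusted p = 0.000716). Of the subunits of RNase P, which trims tRNA 5′ ends, Pop1 and Rpp38 rose, with log2 fold changes of 1.67 and 1.96. Of the same subunits Rpp14 and Pop4 fell, at -1.10 and -1.30, and Rpp30 fell from 17.9 ± 6.12 CPM to 8.93 ± 1.53 CPM. Rpp25, another of these subunits, also fell, and its call was kept in 15 of 15 alternatives. Trnt1, Pop1 and Rpp38 were called in 16 of 16 alternatives. Rpp14 lost the call when control replicate 2 or EtP replicate 2 or 3 was left out. Rpp30 and Pop4 lost it with each EtP replicate left out in turn, and Rpp30 also without control replicate 1.

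**Figure D5:**
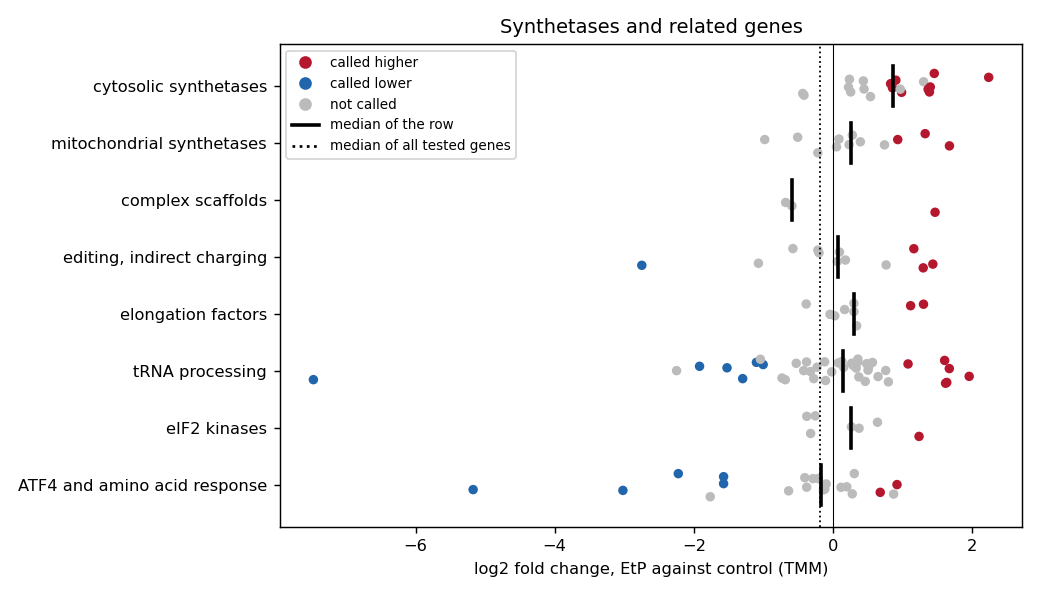
Log2 fold changes of the tested genes in each related list, EtP against control, with the synthetases in the upper rows. Red and blue points are genes called higher and lower, grey points were not called, and bars are medians. The medians are 0.85 for cytosolic and 0.25 for mitochondrial synthetases and -0.18 for the Atf4 and amino acid response.

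These list counts also depend on the scaling. With library size alone 0 scaffolds were higher and 2 lower, 0 genes of the Atf4 response were higher and 12 lower, and 3 genes of tRNA processing were higher and 17 lower. The eIF2 kinases and their partners had 0 higher and 3 lower, and so did the elongation factors. The genes of tRNA editing and indirect charging had 1 higher and 4 lower.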

How the data were processed

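RNA was measured by Smart-seq2 in 3 control and 3 EtP libraries of mouse early 2-cell embryos. The deposited tables hold expected counts, TPM and a mean transcript length per gene in bases, named so per the file headers. The authors trimmed reads with cutadapt 1.16 and aligned them with STAR to mm10, per the submitters' processing notes; the program that estimated the counts is not given in the sources used here. Between 10.6 and 16.0% of rows per library held counts that were not whole, at a tolerance of 0.005. Expected counts were rounded to whole numbers, filtered with filterByExpr, scaled by TMM and tested with edgeR 4.0.16 (quasi-likelihood, R 4.3.3), with Benjamini-Hochberg adjustment over all genes tested. Other fits used limma 3.58.1 and DESeq2 1.42.0, other scalings and filters, each library left out, and the replicate number as a block. Total counts of 11173295 to 14737152 per library set the precision. Genes under 5 CPM rest on few reads, and the limit of 3 counts covers counting error only. Gene positions came from GENCODE M21, which held 55154 of 55335 Ensembl rows. Near-identical transcripts were sought with blastn 2.17.0 and promoters in the RefSeq table. Members called at adjusted p below 0.05, Lars2 and members whose call changes with scaling are given per library. Of the related lists, up to 8 called genes each were to be named, by smallest p at a mean of at least 5 CPM. Aimp2, Eef1e1, Asns, Slc7a11, Eif2ak4, Psat1, Cebpb, Ero1l, Pycr1 and Rpp25 were named after their values were seen. Of the 37 genes the rule found, 1 is not reported here. Members and lists were chosen with earlier results of these data known.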

Additional observations from a re-analysis of the deposited data

How the results depend on the processing

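Rars, Cars, Nars, Tars and Lars2 were called higher under all 16 alternatives. With library size alone, which moves the median log2 fold change over the same genes by -0.73, 545 genes were higher and 7617 lower. The synthetases were then 5 higher and 5 lower, the cytosolic enzymes 4 and 2, and the mitochondrial enzymes 1 and 3. The 11 genes not called by TMM scaling whose sign reversed were Farsa at -0.21, Farsb at -0.47, Gars at -0.53, Hars at -0.27, Kars at -0.29, Pars2 at -0.65, Rars2 at -0.48, Vars2 at -0.46, Wars at -0.52, Wars2 at -0.67 and Yars2 at -0.34. Among genes of at least 10 CPM in 3 libraries, where the median moves by -0.25, 978 were higher and 1454 lower. The synthetases called lower were then 1, which was cytosolic (Iars), and the mitochondrial enzymes called higher were 1. Farsb turned to -0.0018, Gars to -0.022 and Wars to -0.0321. At adjusted p below 0.01, 918 genes were higher and 1403 lower, and the mitochondrial enzymes called higher were 1. Without a filter and with DESeq2 (a median shift of 0.12), 1 synthetase was called lower, the mitochondrial Hars2, which the main filter left out. Wars2 was -0.023 with upper-quartile scaling.

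Leaving out each library in turn gave 1096 to 2637 genes higher and 1659 to 2887 lower. For synthetases it gave 8 to 15 higher and 0 to 1 lower, for cytosolic enzymes 7 to 11 higher, and for mitochondrial enzymes 1 to 4 higher and 0 to 1 lower. The 1 called lower was Ears2, without control replicate 1. Of the genes not called, Wars2 ranged from -0.2036 to 0.6133 and Pars2 from -0.0418 to 0.4055. The cause of these moves was not tested.

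The labels number replicates 1 to 3 in both groups and do not say whether the numbers pair the libraries. Deviations from the group mean correlated at 0.184, 0.0052 and 0.363 between same-numbered libraries. Between differently numbered libraries they correlated at -0.305 to 0.152. Whether the libraries are paired was not tested. With the replicate block, 2295 genes were higher and 3022 lower, and 13 synthetases were higher and 0 lower, among them 10 cytosolic and 3 mitochondrial. Mars and Cars2 gained a call (edgeR adjusted p = 0.0053 and 0.0483), and Tars2 lost its call (0.0546).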
